A study of Homo sapiens with 6 samples.

Results

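The epidermal growth factor (EGF) family ligands AREG, EREG, HBEGF and TGFA, the ERBB receptors EGFR, ERBB2 and ERBB3, and the receptor inhibitor ERRFI1 were chosen by gene symbol from an RNA-seq table, which gave 8 genes of 17687. The cells were KHM-5M, an established line of anaplastic thyroid cancer. The control group received PBS, the SS group received sodium selenite, and the SS+NAC group received sodium selenite together with N-acetylcysteine, a thiol antioxidant. The labels give neither a dose nor an exposure time, and no group received N-acetylcysteine alone. Each group had 2 libraries, described by the study as biological replicates, with 17645545 and 22016655 expected counts in the control group, 23493415 and 23810056 in the SS group, and 23682740 and 22617180 in the SS+NAC group.

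EGF family ligands are made as membrane-bound precursors, and proteases of the ADAM family release them from the cell surface. Ligand binding lets the ERBB receptors pair, which switches on their kinase domains and drives the RAS-ERK and PI3K-AKT cascades, while ERRFI1 binds the active kinase and damps it. In thyroid cancer, growth signals of this kind reach the same cascades that mutated BRAF or RAS can activate from within.

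Marker genes were examined first to check the label of the cells. The thyroid transcription factors PAX8 and HHEX were expressed, at 104 to 134 TPM and 25.9 to 29.8 TPM over the 6 libraries, where TPM is a share of transcripts scaled by transcript length and library. NKX2-1 stayed at or below 0.2 TPM, thyroglobulin (TG) lay between 0.22 and 0.3 TPM, FOXE1 between 0.55 and 1.59 TPM and the iodide transporter SLC5A5 between 0.33 and 0.69 TPM, and TSHR was not analysed here. The 6 of 8 thyroid genes present in the table, led by PAX8, summed to 164 and 155 TPM in control, 147 and 131 TPM under SS, and 156 and 163 TPM under SS+NAC. The line thus carried PAX8 and HHEX mRNA with little or no mRNA of differentiated thyroid function. Keratins KRT8 and KRT18 were abundant (977 to 1398 TPM and 731 to 1099 TPM) beside vimentin (VIM, 5744 to 6621 TPM), whereas E-cadherin (CDH1) did not exceed 0.29 TPM. Of the leukocyte markers, PTPRC lay between 0.53 and 0.77 TPM and CD3E at or below 0.06 TPM, while CD68 reached 70.5 to 109 TPM, and the 4 endothelial markers summed to 0.63 to 0.92 TPM. The fibroblast list was led by COL1A1 at 167 to 273 TPM, with COL1A2 at or below 0.04 TPM. Summed TPM of the 6 epithelial markers was 2136 and 2183 in control, 2324 and 2571 under SS, and 2093 and 1762 under SS+NAC, led by KRT8. The tested markers called between SS and control were 3 of 6 epithelial (all higher, 0 with the length offset described below), 1 of 5 thyroid (higher, 0 with the offset) and 3 of 5 mesenchymal (1 higher, 2 lower, or 0 and 1 with the offset), with 0 of 3 leukocyte, 0 of 3 endothelial and 0 of 3 fibroblast markers by edgeR's quasi-likelihood test. Between SS and SS+NAC, 3 of 6 epithelial markers were higher (3 with the offset) and 4 of 5 mesenchymal markers were called, 1 higher and 3 lower (2 with the offset, 1 in each direction). In that comparison 1 of 5 thyroid markers was higher (1 with the offset), 1 of 3 fibroblast markers was lower (0 with the offset), and 1 of 3 leukocyte markers was lower with the offset only. Of all genes, 18.6% were called higher and 21.4% lower between SS and control (4.19% and 5.03% with the offset). Between SS and SS+NAC these shares were 19.6% and 23.1% (7.04% and 7.38% with the offset). None of these lists had a marker called between SS+NAC and control by edgeR's quasi-likelihood test. With the offset 1 of 5 mesenchymal markers was higher there, beside 1.35% of all genes. The part of these marker shifts in the results below was not tested.

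Between SS and control, 3 of the 8 genes passed edgeR's quasi-likelihood test at a Benjamini-Hochberg adjusted p of at most 0.05, against 40.0% of all 14005 genes tested. All 3 were lower in SS (EGFR, ERBB2 and ERRFI1, although ERBB2 turned to a log2 fold change of 0.02 once the length trend described below was removed), against 21.4% of all genes called lower, and 0 were higher, against 18.6%. The median log2 fold change of the 8 genes was -0.19, and that of all genes tested was 0.00304. In bulk RNA, fewer cells of a type and less RNA per cell cannot be told apart. The calls rested on few libraries: leaving out control replicate 1, control replicate 2 or SS replicate 2 left 1 member called, EGFR, with 3118, 3628 and 3164 genes called over the whole table.

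With N-acetylcysteine present, a single ligand passed the threshold on the adjusted p. Between SS+NAC and control, 1 of the 8 genes was called, EREG, which was higher, against 2.01% of all genes called and 1.36% called higher. None of the 8 was called lower by edgeR's quasi-likelihood test, against 0.657% of all genes. At an unadjusted p of at most 0.05 in that test there were 4 of the 8, against 16.1% of all genes. These were 3 of the 4 ligands and 1 of the 3 receptors. The median log2 fold change of the 8 genes was -0.08 (0.04 on the log2(TPM + 1) scale), beside -0.00244 for all genes. Leaving out SS+NAC replicate 1 raised the count of members called to 2 and that of all genes from 282 to 1086, whereas without control replicate 1 or control replicate 2 it was 98 and 99 for all genes.

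Between SS and SS+NAC, 4 of the 8 genes were called, against 42.7% of all genes. EREG, TGFA and EGFR were lower in SS (23.1% of all genes were called lower) and HBEGF was higher (19.6% called higher). The TGFA call held in 9 of 14 alternatives, and the HBEGF call was lost on the log2(TPM + 1) scale (0.18, beside a median of -0.27 for all genes on that scale). The median of the 8 genes was -0.30, and that of all genes was -0.0342. These 3 comparisons share libraries, since the libraries of every group enter 2 of them, so their values are set side by side and not counted as separate evidence. Without SS replicate 2 the count over all genes was 3250 in place of 5985.

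**Figure D1:**
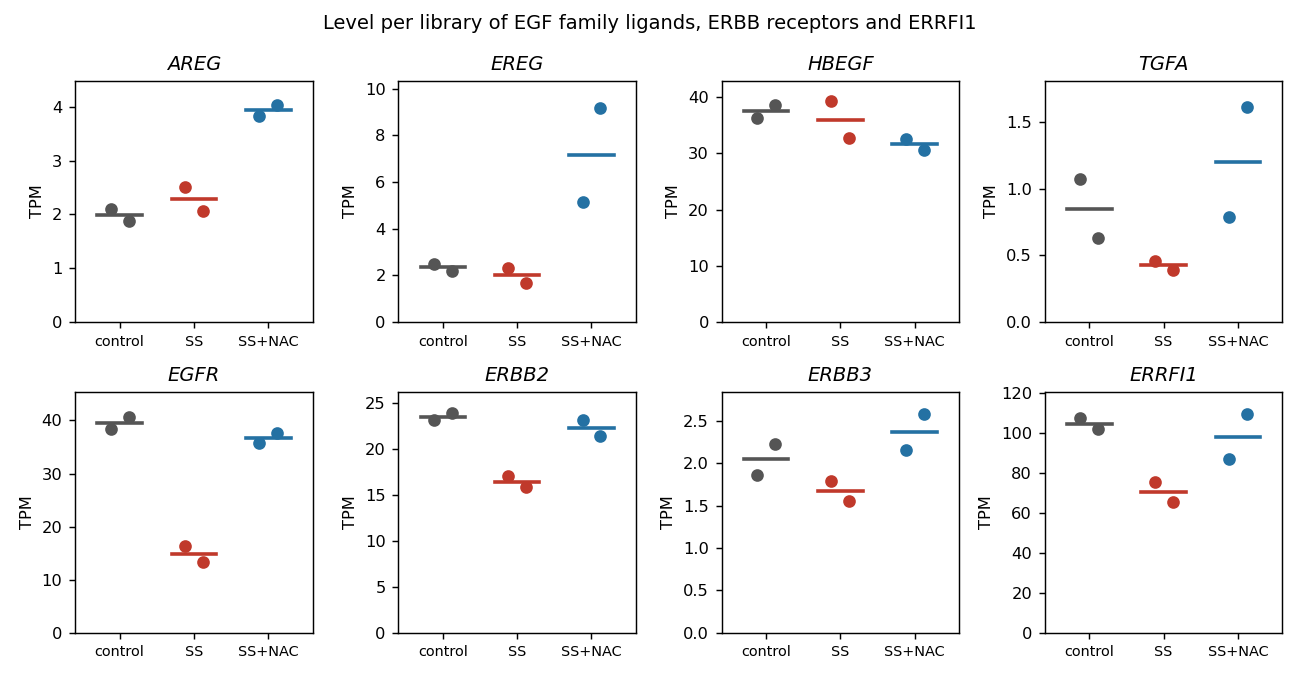
TPM (vertical axis) of each gene in the control, SS and SS+NAC groups (horizontal axis); points are single libraries and bars are group means of 2 libraries. EGFR lay at 38.4 and 40.7 TPM in the control group and at 16.4 and 13.3 TPM in the SS group, and EREG at 5.13 and 9.19 TPM in the SS+NAC group against 2.5 and 2.19 TPM in the control group.

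Levels of the 8 genes were compared with each other in TPM, which is scaled by length. In the control group, ERRFI1 was the most abundant at 104.5 ± 3.86 TPM (SD, n = 2). EGFR (39.6 ± 1.58 TPM) and HBEGF (37.5 ± 1.55 TPM) followed with overlapping libraries, and ERBB2 came next at 23.5 ± 0.502 TPM. EREG (2.35 ± 0.219 TPM), ERBB3 (2.05 ± 0.262 TPM) and AREG (1.99 ± 0.156 TPM) were low, with both EREG libraries above both AREG libraries and ERBB3 overlapping each of them, and TGFA was lowest at 0.85 ± 0.311 TPM. ERRFI1, EGFR and ERBB2 thus stood above every ligand other than HBEGF in TPM, and ERBB3 did not. In the SS group the TPM order changed: HBEGF (36 ± 4.6 TPM) stood above ERBB2 (16.5 ± 0.806 TPM) and EGFR (14.8 ± 2.16 TPM), whose libraries overlapped each other. Further down, mean AREG (2.295 TPM) was above EREG (2.005 TPM), whose libraries overlapped those of AREG and of ERBB3 (1.67 TPM). In the SS+NAC group EGFR (36.7 ± 1.36 TPM) was again above HBEGF (31.6 ± 1.38 TPM), and EREG (7.16 ± 2.87 TPM) moved clear of AREG (3.94 ± 0.148 TPM) and ERBB3 (2.37 ± 0.304 TPM), with no overlap between neighbours in that group's order. The fourth receptor of the family, ERBB4, was at 0 to 0.01 TPM in the 6 libraries and was too low to be tested.

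Among the ligands, AREG encodes amphiregulin and EREG encodes epiregulin. Both bind EGFR, and epiregulin also binds ERBB4. Their genes are neighbours on the plus strand of chromosome 4 (GENCODE 29, GRCh38), EREG at chr4:74365143-74388751 with 5 exons and AREG at chr4:74445134-74455009 with 6 exons, and 56383 bases lie between the end of EREG and the start of AREG. The 250 bases before each RefSeq start (GRCh38.p14) are shown because both genes had their highest scaled counts under SS+NAC; AREG spans chr4:74444886-74445135 and EREG chr4:74364895-74365144, both plus strand. Capitals mark a cyclic AMP response element (TGACGTCA), TATA boxes (TATAAA) and a GC box (GGGCGG, here on the reverse strand as CCGCCC).
AREG: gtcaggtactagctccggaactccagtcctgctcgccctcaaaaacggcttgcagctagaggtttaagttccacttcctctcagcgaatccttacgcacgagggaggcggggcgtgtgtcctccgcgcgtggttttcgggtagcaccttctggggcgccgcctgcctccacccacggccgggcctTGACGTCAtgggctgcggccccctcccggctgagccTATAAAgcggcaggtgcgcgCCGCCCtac
EREG: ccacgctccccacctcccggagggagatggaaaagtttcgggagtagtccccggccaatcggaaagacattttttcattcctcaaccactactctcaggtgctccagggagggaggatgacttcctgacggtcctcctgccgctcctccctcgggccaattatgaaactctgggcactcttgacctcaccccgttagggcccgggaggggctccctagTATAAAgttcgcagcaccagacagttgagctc
The AREG sequence held the TGACGTCA match 65 to 58 bases before the start and TATAAA 29 to 24 bases before it, and the EREG sequence held TATAAA 32 to 27 bases before its start. Over 35116 RefSeq promoters of the same length, searched on both strands, 1.65% held TGACGTCA, 10.7% TATAAA and 42.6% GGGCGG. The search also covered TGANTCA (AP-1, 6.57% of promoters), GCGNGGGCG (EGR, 8.41%), TGACNNNGC (antioxidant response element, 10.9%), TGATGNAA (ATF4 composite, 3.14%) and the CArG box (1.16%), and these letters were not in the AREG or EREG windows. A match describes letters only, and binding was not measured.

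AREG was scarce, with 24 and 27 expected counts in control, 43 and 37 under SS and 59 and 58 under SS+NAC. As CPM, which is counts divided by TMM-scaled library size, it read 1.33 and 1.22 in the control group, 1.87 and 1.69 in the SS group and 2.44 and 2.41 in the SS+NAC group. The 3 groups did not overlap in CPM, with control lowest and SS+NAC highest. In TPM, however, SS (2.52 and 2.07) overlapped control (2.1 and 1.88), and only SS+NAC (3.83 and 4.04) stood apart. With the length trend removed, SS against control gave 0.12 (adjusted p = 0.808, edgeR's quasi-likelihood test). The share of all genes whose groups separate in this way was not counted. AREG was 1.90-fold higher in SS+NAC than in control, yet the difference was not called (log2 fold change 0.93, 95% interval 0.39 to 1.46, adjusted p = 0.0919 by edgeR's quasi-likelihood test), except on the log2(TPM + 1) scale (0.72, adjusted p = 0.0377, limma). The log2 fold change of SS against control was 0.48 with an interval of -0.08 to 1.05 (adjusted p = 0.153, edgeR's quasi-likelihood test), and that of SS against SS+NAC was -0.44 with an interval of -0.94 to 0.05. With the length trend removed, AREG passed the test between SS and SS+NAC (-0.79, adjusted p = 0.0415, edgeR's quasi-likelihood test), as it did on the log2(TPM + 1) scale (-0.59, adjusted p = 0.00514, limma).

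EREG was the ligand with the largest difference among the 4 in both comparisons with SS+NAC. Its CPM was 5.89 and 5.25 in the control group, 6.41 and 5.07 in the SS group, and 12.1 and 20.3 in the SS+NAC group. Both SS+NAC libraries were above the other 4, with SS+NAC replicate 2 well above replicate 1, and the control and SS libraries overlapped. EREG rose 2.92-fold in SS+NAC over control (log2 fold change 1.55, SE 0.231, adjusted p = 0.00751, edgeR's quasi-likelihood test), and was 2.82-fold lower in SS than in SS+NAC (-1.50, SE 0.226, adjusted p = 0.00072). Between SS and control the log2 fold change was 0.05 with an interval of -0.52 to 0.62, and on the log2(TPM + 1) scale its sign turned (-0.16, where the median of all genes was -0.20). Without SS+NAC replicate 2 the rise over control was 1.13 on the log2 scale, and without SS+NAC replicate 1 it was 1.87, and EREG was called in all 14 alternatives tried in both comparisons with SS+NAC. The expected counts of EREG were not whole numbers, which RSEM gives where reads are divided between genes.

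HBEGF encodes heparin-binding EGF-like growth factor, which binds EGFR and ERBB4, and lies on chromosome 5 (chr5:140332843-140346631, minus strand, 6 exons). In CPM it stood at 43.2 and 46.8 in the control group, 54.6 and 50.1 in the SS group, and 38.9 and 34.2 in the SS+NAC group. The groups did not overlap in CPM, with SS highest and SS+NAC lowest. In TPM the control libraries (36.37 and 38.56) lay between the SS libraries (39.25 and 32.75), and SS+NAC (32.56 and 30.61) was still lowest. HBEGF was 1.43-fold higher in SS than in SS+NAC (log2 fold change 0.52, SE 0.0897, adjusted p = 0.00138, edgeR's quasi-likelihood test), a call that was lost on the log2(TPM + 1) scale (0.18, adjusted p = 0.156, limma). The median of all genes in this comparison was -0.27 on that scale. With the length trend removed, HBEGF was still called (0.44, adjusted p = 0.0113, edgeR's quasi-likelihood test). SS against control gave 0.22 with an interval of 0.02 to 0.41 (adjusted p = 0.079, edgeR's quasi-likelihood test), a sign that turned on the log2(TPM + 1) scale (-0.06, where the median of all genes was -0.20). That difference was called in 4 of 14 alternatives: with at least 10 counts in every library (adjusted p = 0.0418), with only the compared libraries (0.0376), and without SS+NAC replicate 1 (0.0327) or replicate 2 (0.0339), all by edgeR's quasi-likelihood test. In SS+NAC against control the value was -0.30 with an interval of -0.50 to -0.10 (adjusted p = 0.138, edgeR's quasi-likelihood test), and it was called only without SS+NAC replicate 1 (-0.40, adjusted p = 0.0184, edgeR's quasi-likelihood test).

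TGFA encodes transforming growth factor alpha, an EGFR ligand, at chr2:70447280-70554193 on the minus strand with 6 exons. It was scarce, with 42 and 31 expected counts in control, 28 and 24 under SS, and 42 and 80 under SS+NAC. In CPM both SS libraries (1.22 and 1.10) were below every other library, while SS+NAC (1.74 and 3.32) overlapped control (2.33 and 1.40). TGFA was 2.18-fold lower in SS than in SS+NAC (log2 fold change -1.12, SE 0.364, adjusted p = 0.029, edgeR's quasi-likelihood test). That call was lost without SS replicate 1 (-1.20, adjusted p = 0.0825), SS replicate 2 (-1.05, adjusted p = 0.137) or SS+NAC replicate 2 (-0.58, adjusted p = 0.262) in edgeR, with the length trend removed (-0.90, adjusted p = 0.121), and with DESeq2 (-1.10, adjusted p = 0.0533). Against control, TGFA gave -0.66 in SS, with an interval of -1.53 to 0.20, and 0.46 in SS+NAC, with an interval of -0.31 to 1.22, and without SS+NAC replicate 2 the latter sign turned (-0.08). The value for SS against control was -0.28 without control replicate 1 and -0.98 without control replicate 2.

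Summed over the 11 ERBB ligand genes of the table, ligand mRNA was 55.7 and 57.7 TPM in control, 58.4 and 48 TPM under SS, and 58.5 and 63.6 TPM under SS+NAC. The control and SS libraries overlapped, and both SS+NAC libraries were the highest in TPM, SS+NAC replicate 1 by a narrow margin. In FPKM, SS replicate 1 was the highest (33.5, against 30.1 and 32 under SS+NAC), and the ratio of SS to control turned from 0.939 in TPM to 1.06. That turn comes from the scaling, since TPM per FPKM is a single factor for all genes of a library (1.95 and 1.94 in control, 1.75 and 1.69 under SS, 1.94 and 1.99 under SS+NAC). HBEGF made up 66.1 ± 1.16% of ligand TPM in control, 67.7 ± 0.709% in SS and 51.9 ± 5.34% in SS+NAC. The share of EREG was 4.14 ± 0.485% in control, 3.74 ± 0.347% in SS and 11.6 ± 4.01% in SS+NAC. AREG took 3.51 ± 0.358%, 4.31 ± 0.00256% and 6.45 ± 0.14% in the same order, and the neuregulin NRG1, a ligand of ERBB3 and ERBB4, took 13.6 ± 0.0361%, 14.1 ± 0.0305% and 17.8 ± 0.947%. In SS+NAC the shares of these 4 genes were separate from those of control, and no test was made on shares, which also fall for one ligand where another is higher.

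**Figure D2:**
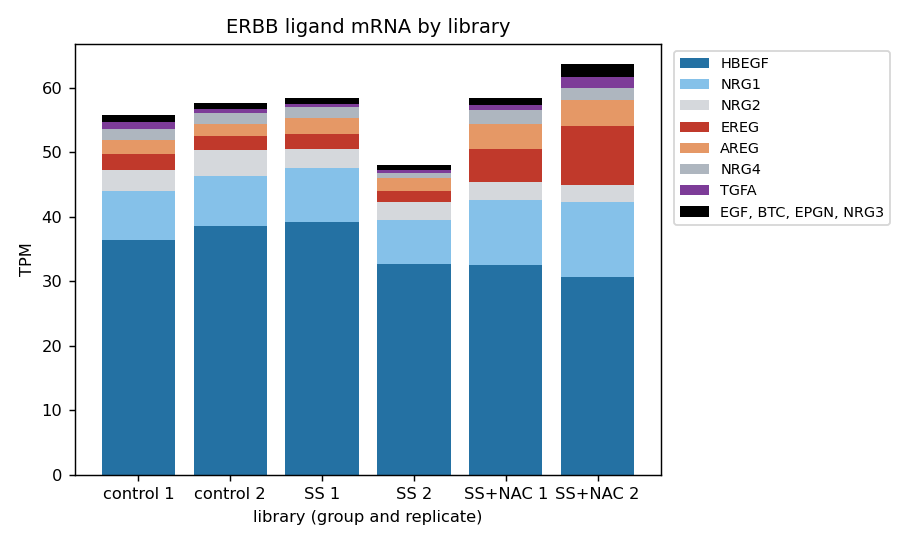
Stacked TPM of 11 ERBB ligand genes (vertical axis) in each of the 6 libraries (horizontal axis), with 1 colour per gene and the 4 least expressed genes pooled in black. HBEGF fills 65.2% and 66.9% of the bar for control and 55.7% and 48.1% for SS+NAC, where EREG reaches 8.77% and 14.4%.

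EGFR is the receptor for all 4 ligands described above. The gene spans chr7:55019021-55211628 on the plus strand, with 28 exons in its main transcript, and an annotated antisense gene (EGFR-AS1) overlaps its exons. Use of strand in counting is not given in the sources used here, so reads of the 2 genes cannot be told apart. The 250 bases before the first RefSeq start (GRCh38.p14, chr7:55018767-55019016, plus strand) are shown because EGFR had the largest change of the 8 genes between SS and control; capitals mark GC boxes, both on the reverse strand, at 204 to 199 and 36 to 31 bases before the start.
EGFR: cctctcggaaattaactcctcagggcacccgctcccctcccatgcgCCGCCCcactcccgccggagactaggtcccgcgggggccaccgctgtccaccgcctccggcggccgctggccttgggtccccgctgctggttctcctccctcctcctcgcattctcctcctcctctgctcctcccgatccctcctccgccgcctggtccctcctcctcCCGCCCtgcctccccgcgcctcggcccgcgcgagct
No TATAAA was found in this window, whereas a further RefSeq start of EGFR at the downstream end of chr7:55109589-55109838 was preceded by 2 AP-1 matches and 2 TATAAA matches. A RefSeq promoter was matched for 7 of the 8 genes, all but ERBB3. GC boxes were also found before HBEGF (5 matches, of which 2 share a base), TGFA (3 matches) and ERRFI1 (1 match), and an AP-1 match before ERBB2.

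EGFR was measured with 2168 and 2865 expected counts in control, 1334 and 1124 under SS, and 2649 and 2611 under SS+NAC. In CPM these were 120.5 and 129.6 for control, 58.1 and 51.3 for SS, and 109.7 and 108.5 for SS+NAC. Both SS libraries lay far below every other library, and the SS+NAC libraries lay close below the control libraries. EGFR fell 2.28-fold in SS (log2 fold change -1.19, SE 0.0832, adjusted p = 2.76e-05, edgeR's quasi-likelihood test), and it was 1.99-fold lower in SS than in SS+NAC (-0.99, SE 0.0828, adjusted p = 9.71e-05, edgeR's quasi-likelihood test). Between SS+NAC and control the log2 fold change was -0.20, with an interval of -0.38 to -0.02 (adjusted p = 0.265, edgeR's quasi-likelihood test). EGFR was called in all 14 alternatives for both comparisons of the SS group, with log2 fold changes from -1.36 to -0.81 against control and from -1.26 to -0.63 against SS+NAC.

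ERBB2 has no known ligand of its own and serves as the preferred partner of the other receptors. It lies at chr17:39687914-39730426 on the plus strand, and exons of PGAP3 and MIEN1 on the opposite strand overlap it, so their reads cannot be told apart from its own at those places. CPM values were 55 and 57.9 in the control group, 47.3 and 48.4 in the SS group, and 55.4 and 47.8 in the SS+NAC group. Both SS libraries were below both control libraries, and SS+NAC overlapped both groups. ERBB2 was 1.18-fold lower in SS than in control at the edge of the threshold (log2 fold change -0.24, SE 0.0867, adjusted p = 0.0489, edgeR's quasi-likelihood test), but the sign turned with the length trend removed (0.02, adjusted p = 0.919). The call held in 4 of 14 alternatives. The other comparisons gave -0.13 for SS+NAC against control, with an interval of -0.32 to 0.06, and -0.11 for SS against SS+NAC, with an interval of -0.30 to 0.08, the latter turning to 0.14 with the length trend removed. The value for SS+NAC against control was -0.24 without SS+NAC replicate 1 and -0.03 without SS+NAC replicate 2. On the log2(TPM + 1) scale ERBB2 was called lower in SS than in SS+NAC (-0.42, adjusted p = 0.00544, limma).

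ERBB3, the neuregulin receptor with a nearly inactive kinase, was at 1.55 to 2.58 TPM over the 6 libraries and had 45.7 to 70.1 expected counts. It is annotated at chr12:56076799-56103505 on the plus strand, where a further protein-coding gene on the same strand (AC034102.2) overlaps its exons, and the effective length derived from the table ran from 1870 to 2727 bases between libraries. CPM was 2.56 and 2.49 in the control group, 2.35 and 2.19 in the SS group and 2.03 and 2.91 in the SS+NAC group. The SS+NAC libraries spanned all the others. No comparison was called, with log2 fold changes of -0.15 (interval -0.68 to 0.38) for SS against control, -0.03 (-0.55 to 0.49, turning to 0.14 on the log2(TPM + 1) scale) for SS+NAC against control, and -0.12 (-0.63 to 0.40) for SS against SS+NAC. Effects inside these intervals cannot be told apart from none.

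ERRFI1, also known as MIG6, is induced by receptor signalling and inhibits the kinase domains of EGFR and ERBB2. The gene lies at chr1:8004404-8026308 on the minus strand with 4 exons, and an antisense gene (AL034417.4) overlaps it. Its CPM was 171 and 166 in the control group, 140.2 and 133 in the SS group, and 139.9 and 164 in the SS+NAC group. Both treated groups lay below control, and SS+NAC replicate 1 was as low as SS replicate 1. ERRFI1 fell 1.23-fold in SS (log2 fold change -0.30, SE 0.0867, adjusted p = 0.0186, edgeR's quasi-likelihood test). That call was lost with the length trend removed (-0.25, adjusted p = 0.0925) and without control replicate 1 (-0.28, adjusted p = 0.126), control replicate 2 (-0.30, adjusted p = 0.0964) or SS replicate 2 (-0.27, adjusted p = 0.116) in edgeR. Against control, SS+NAC gave -0.15 (interval -0.34 to 0.04), and SS against SS+NAC gave -0.15 (interval -0.34 to 0.04), which was called without SS+NAC replicate 1 in edgeR (-0.26) and on the log2(TPM + 1) scale (-0.47, adjusted p = 0.00751, limma). Without SS+NAC replicate 2, SS against SS+NAC gave -0.04. The value for SS+NAC against control was -0.04 without SS+NAC replicate 1 and -0.27 without SS+NAC replicate 2.

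**Figure D3:**
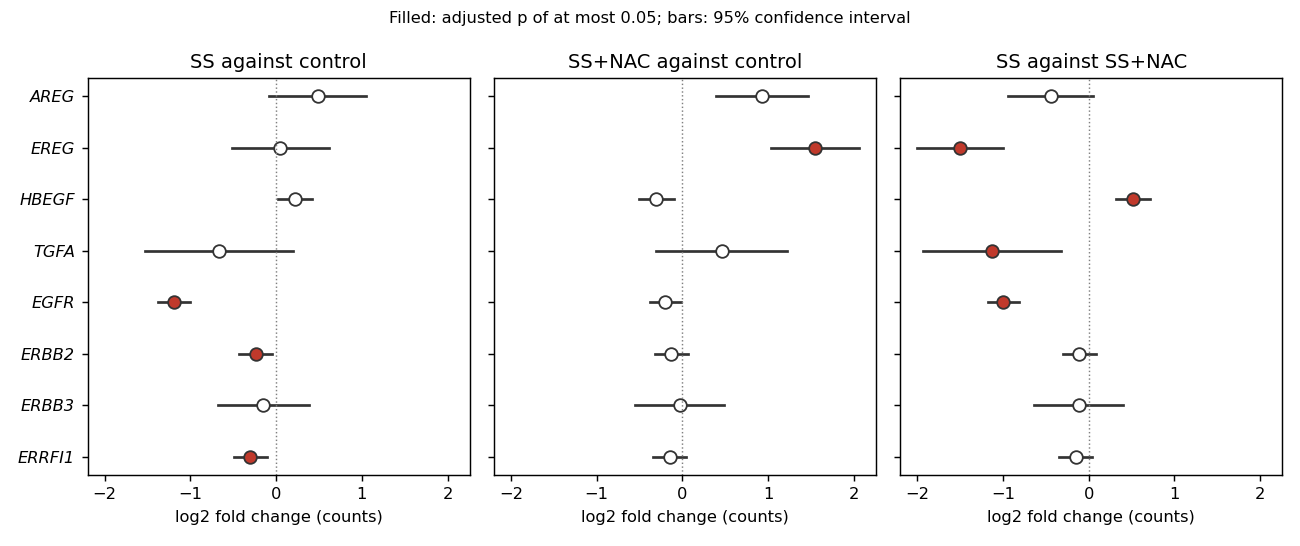
Log2 fold change on counts (horizontal axis) of each gene (vertical axis) in the 3 comparisons, with 95% confidence intervals; filled points were called by edgeR's quasi-likelihood test. EGFR lies at -1.19 and -0.99 in the outer panels and EREG at 1.55 in the middle panel, while ERBB2 in SS against control (-0.24) turns sign with the length trend removed and HBEGF and EREG there (0.22 and 0.05) turn sign on the log2(TPM + 1) scale, where the median of all genes was -0.20.

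Transcript length moved with the response to SS over the whole table, so each member was set beside genes of its length. When the tested genes were divided into 8 equal bins of effective length, the median log2 fold change of SS against control ran from 0.46 in the shortest to -0.46 in the longest, while that of SS+NAC against control stayed between -0.02 and 0.02. AREG (1263 bases) was in the shortest bin with 0.48, near the bin's median of 0.46. EGFR (6131 bases) was in the longest bin, and its -1.19 was well below the bin's median of -0.46. ERBB2 (4725 bases, -0.24, or 0.02 with the trend removed) and EREG (4680 bases) shared a bin with a median of -0.30, and ERBB2 lay close to it, while EREG (0.05, or -0.16 on the log2(TPM + 1) scale) lay above it. HBEGF (2368 bases, 0.22, or -0.06 on the log2(TPM + 1) scale) and ERBB3 (2241 bases, -0.15) shared a bin with a median of 0.14, HBEGF above it and ERBB3 below it. ERRFI1 (3174 bases, -0.30) and TGFA (4382 bases, -0.66) were below their bins' medians of -0.08 and -0.18. With the trend removed by a length offset fitted in each library, 1 of the 8 genes was called between SS and control, EGFR (-0.81, SE 0.0763, adjusted p = 0.000587, edgeR's quasi-likelihood test), and 1292 of all genes in place of 5609. Between SS and SS+NAC the offset gave 4 called members, AREG, EREG and EGFR lower and HBEGF higher. On the log2(TPM + 1) scale the median of all genes shifted to -0.20 between SS and control and to -0.27 between SS and SS+NAC, and the calls split into 712 higher and 5240 lower in SS against control, beside 2605 and 3004 on counts, and into 624 and 6490 in SS against SS+NAC, beside 2745 and 3240. Relative to that shift, HBEGF (-0.06) was above the median gene and EGFR (-1.36), ERRFI1 (-0.57) and ERBB2 (-0.49, with the length caveat above) were below it.

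**Figure D4:**
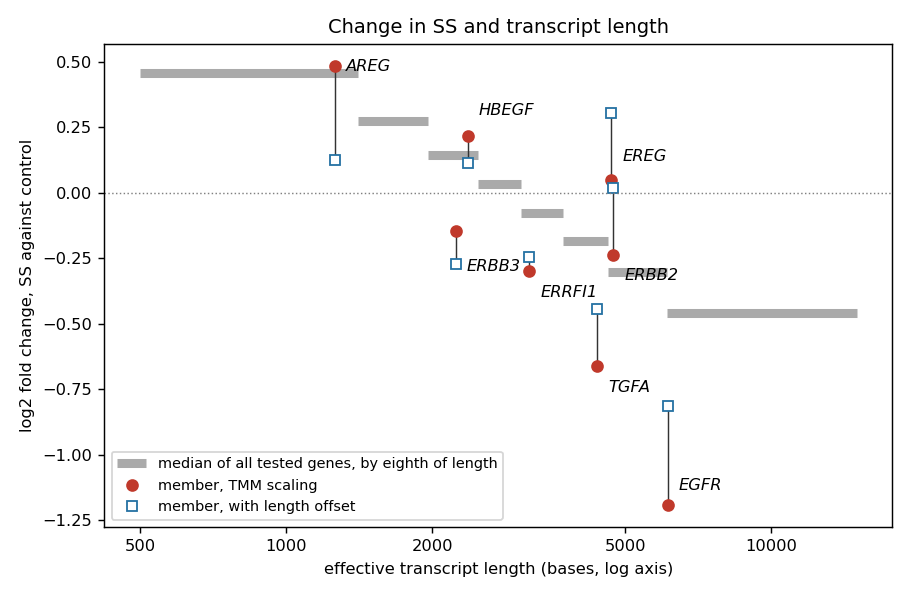
Log2 fold change of SS against control (vertical axis) by effective transcript length in bases (horizontal log axis); grey bars are medians of all tested genes in 8 length bins, drawn within the range of the axis, red points are the 8 genes on TMM-scaled counts and open squares the same genes with the length offset. EGFR stays at -0.81 with the offset, whereas ERBB2 moves from -0.24 to 0.02 and AREG from 0.48 to 0.12.

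Likeness of pattern was measured as the root mean square difference of log2 CPM, centred on each gene's mean over the 6 libraries, among the 9527 tested genes that averaged 10 CPM or more. For AREG the nearest genes were HMOX1 (0.0382), which encodes heme oxygenase 1, and SQSTM1 (0.0695), which encodes the autophagy receptor p62. HMOX1 read 21.9 and 19.4 TPM in the control group, 24.6 and 21.4 TPM in the SS group, and 36.4 and 41 TPM in the SS+NAC group. Its SS+NAC libraries were the highest, and the SS and control libraries overlapped in TPM, whereas on counts HMOX1 was higher in SS than in control (0.43, adjusted p = 0.00466, edgeR's quasi-likelihood test). For EREG the nearest were LRRC15 (0.162) and TRIM16 (0.197), with TRIM16 at 20.1 and 20.8 TPM in control, 21.7 and 18.7 TPM in SS, and 50.2 and 67.3 TPM in SS+NAC. HBEGF was nearest to the transcription factor KLF5 (0.0658) and to STX4 (0.0669), a syntaxin of vesicle fusion, and TGFA to CCPG1 (0.17) and the semaphorin SEMA3C (0.184). ERRFI1 was nearest to the transcription factor FOXP1 (0.0237) and to RAB3IP (0.0241). For scale, the same measure against a flat profile was 0.364 for AREG, 0.731 for EREG, 0.225 for HBEGF, 0.529 for TGFA and 0.142 for ERRFI1. The ranking is a description over 6 libraries and carries no test.

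The other genes of the pathway were counted by role, with 107 tested genes in 9 lists. The shares of all genes called higher and lower, beside which these counts and those of each list stand, were 18.6% and 21.4% between SS and control, 1.36% and 0.657% between SS+NAC and control, and 19.6% and 23.1% between SS and SS+NAC. Between SS and control 6 were higher and 43 lower (median -0.19, or -0.03 with the length offset), between SS+NAC and control 6 were higher and 0 lower (median -0.06), and between SS and SS+NAC 9 were higher and 45 lower (median -0.20, or 0.02 with the offset). The median of all genes tested in these comparisons was 0.00304, -0.00244 and -0.0342. With the length offset, 3 were higher and 11 lower between SS and control, against 4.19% and 5.03% of all genes, and 4 were higher and 16 lower between SS and SS+NAC, against 7.04% and 7.38% of all genes.

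Of the ERBB ligands outside the set, 6 of 7 could be tested, and NRG3 at 0 to 0.06 TPM could not. NRG4, a ligand of ERBB4, fell in SS (log2 fold change -0.71, SE 0.138, adjusted p = 0.00271, edgeR's quasi-likelihood test), and with the length offset it was not called (-0.22, adjusted p = 0.345). NRG1 (0.04), NRG2 (0.10), EGF (0.28), BTC (0.47) and EPGN (-0.52) were not called between SS and control, where NRG1 (-0.03), NRG2 (-0.25) and EGF (-0.02) turned sign on the log2(TPM + 1) scale (median of all genes -0.20), and none of the 6 was called between SS+NAC and control by edgeR's quasi-likelihood test (3 at an unadjusted p of at most 0.05, which 16.1% of all tested genes reached in that comparison). Between SS and SS+NAC, NRG1 (-0.33, or -0.28 with the offset) and NRG4 (-0.73, or -0.26 with the offset) were lower and NRG2 (0.48, or 0.50 with the offset) was higher, and none of these 3 passed with the offset.

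The 8 genes of ligand shedding followed, of which 4 were lower in SS than in control and 0 higher (median -0.27, or -0.10 with the offset). ADAM9 (-0.80), ADAM10 (-0.79), the sheddase of several EGFR ligands, ADAM12 (-0.61) and ADAM17 (-0.35), the main sheddase of AREG, EREG, HBEGF and TGFA, were the 4, and ADAM9 (-0.64) and ADAM10 (-0.52) also passed with the offset. ADAM10 read 37.8 and 37 TPM in the control group, 19.7 and 16.7 TPM in the SS group, and 33.9 and 40.7 TPM in the SS+NAC group. The SS libraries were far below the rest, and SS+NAC overlapped control. ADAM15 (-0.06), the iRhoms RHBDF1 (0.24, turning to -0.02 on the log2(TPM + 1) scale, where the median of all genes was -0.20) and RHBDF2 (-0.15), which carry ADAM17 to the surface, and their partner FRMD8 (-0.19) were not called. Between SS+NAC and control 0 of the 8 were called by edgeR's quasi-likelihood test (2 at an unadjusted p of at most 0.05), and between SS and SS+NAC the same 4 ADAM genes were lower, from -1.10 for ADAM12 to -0.66 for ADAM17. These 4 also passed with the offset in that comparison, from -0.65 for ADAM12 to -0.44 for ADAM17.

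Inhibitors of the receptors other than ERRFI1 were lower as well, in 5 of 10 tested (median -0.26, or -0.07 with the offset). CBL, the ubiquitin ligase that marks active EGFR for degradation, fell the most (-1.25, SE 0.0977, adjusted p = 4.57e-05, edgeR's quasi-likelihood test) and was the 1 gene of the list called with the offset (-0.68). UBASH3B (-0.70), SOCS4 (-0.67) and LRIG1 (-0.64), a transmembrane inhibitor that promotes receptor turnover, followed. Between SS+NAC and control 1 was called, RNF41, a ubiquitin ligase for ERBB3, at 0.41 (named after its value was seen), and between SS and SS+NAC 6 were lower and 0 higher, or 3 and 0 with the offset (median -0.44, or -0.10).

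Downstream of the receptors, 8 of 13 adaptor genes were lower in SS than in control, and 4 with the offset (median -0.29, or -0.21 with the offset), led by the docking protein GAB1 (-0.84, not called with the offset at -0.39), the RAS exchange factors SOS1 (-0.80, or -0.34 with the offset) and SOS2 (-0.77, or -0.42 with the offset), and the phosphatase PTPN11 (-0.63, or -0.24 with the offset). Of 9 PI3K-AKT genes 7 were lower, and 3 with the offset (median -0.48, or -0.22 with the offset), led by the catalytic subunit PIK3CA (-0.94, or -0.51 with the offset) and the regulatory subunit PIK3R1 (-0.84, or -0.43 with the offset), and including the kinase PDPK1 (-0.68, not called with the offset at -0.23). The 10 RAS-ERK genes were split, with 2 higher and 3 lower (median -0.04, or 0.01 with the offset), among them BRAF (-0.47, turning to 0.04 with the offset) and MAP2K2 (0.32), and 0 passed with the offset. Of 15 receptor endocytosis genes 1 was higher (TSG101, 0.35) and 3 were lower (EPS15, -0.47; STAM2, -0.46; CLTC, -0.21, turning to 0.22 with the offset), with a median of -0.00304 (0.06 with the offset). With the offset 1 gene of this list was higher and 0 were lower. Between SS and SS+NAC, 7 adaptors (1 with the offset, beside 1 higher), 6 PI3K-AKT genes (2 with the offset), 3 RAS-ERK genes (0 with the offset) and 2 endocytosis genes (0 with the offset) were lower. In the same comparison 4 RAS-ERK genes (0 with the offset) and 2 endocytosis genes (3 with the offset) were higher. None of these 4 lists had a gene called between SS+NAC and control by edgeR's quasi-likelihood test, and at an unadjusted p of at most 0.05 there were 1 adaptor, 2 PI3K-AKT, 0 RAS-ERK and 0 endocytosis genes.

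Genes that ERK signalling induces were the list with most calls between SS+NAC and control, 5 of 16, all higher (median 0.05). The list as a whole was split there, with 8 positive and 8 negative log2 fold changes, so the named genes do not stand for all 16. EGR1, an early-response transcription factor, read 6.48 and 5.8 TPM in the control group, 13.8 and 9.07 TPM in the SS group, and 61.2 and 69.5 TPM in the SS+NAC group. The 3 groups did not overlap. EGR1 rose in SS+NAC over control (log2 fold change 3.36, SE 0.139, adjusted p = 3.62e-07, edgeR's quasi-likelihood test) and in SS over control (1.17, adjusted p = 0.000348). FOS rose by 1.64 and 1.16 and IER3 by 0.86 and 0.46 in the same comparisons, and the ERK phosphatases DUSP4 (0.89) and DUSP5 (0.47) were the remaining calls in SS+NAC, named after their values were seen. In TPM the IER3 libraries of SS (213.5 and 150) and of control (174.6 and 143.6) overlapped. Between SS and control 3 of the 16 were higher and 4 lower, or 2 and 0 with the offset (median 0.01, or -0.26 on the log2(TPM + 1) scale, beside -0.20 for all genes on that scale), among the latter SPRED1 (-0.38, turning to 0.09 with the offset), and between SS and SS+NAC 2 were higher and 10 lower, or 0 and 4 with the offset.

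Receptor tyrosine kinases of other families gave a comparison for EGFR. Of 20 tested, 8 were lower in SS than in control and 0 higher (median -0.32, or -0.06 with the offset). MET, the receptor for hepatocyte growth factor, fell by 0.84 on the log2 scale (adjusted p = 9.43e-05, edgeR's quasi-likelihood test), from 54.1 and 52.2 TPM in the control group to 28.6 and 24.9 TPM in the SS group, and was the 1 gene of this list called with the offset (-0.45). ROR1 (-0.58), MERTK (-0.49) and AXL (-0.43) were next, and AXL was the most abundant at 317 to 506 TPM. None of the 20 was called between SS+NAC and control by edgeR's quasi-likelihood test (6 at an unadjusted p of at most 0.05), and 5 were lower between SS and SS+NAC, or 2 with the offset (median -0.15, turning to 0.09 with the offset).

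**Figure D5:**
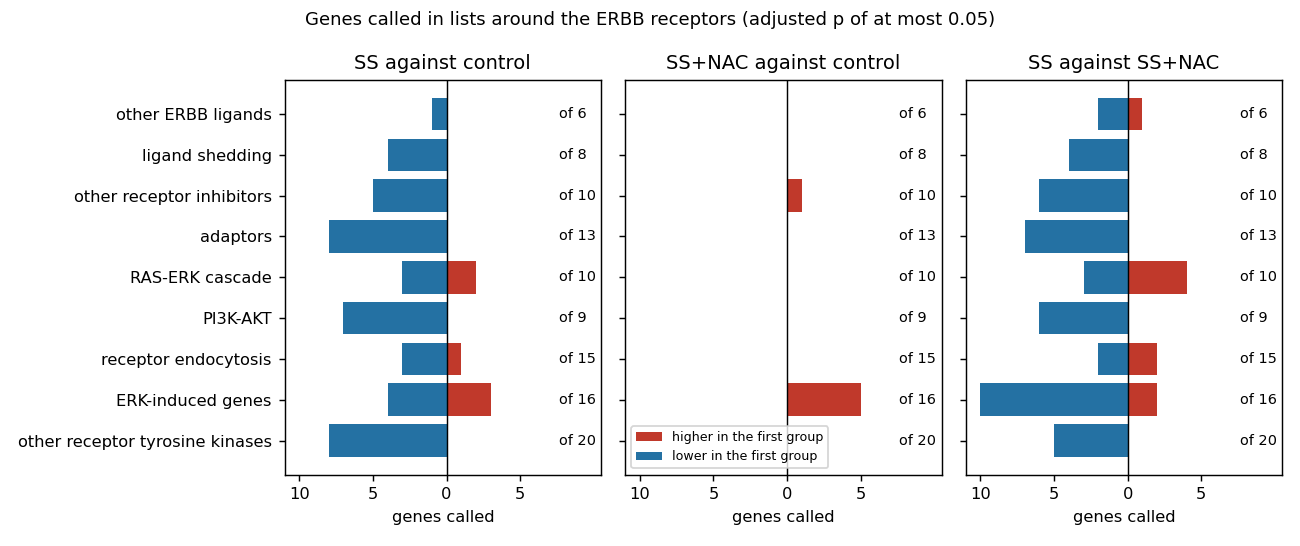
Number of genes called (horizontal axis) in each of 9 pathway lists (vertical axis) for the 3 comparisons, with genes higher in the first group to the right, genes lower in it to the left, and the number tested beside each bar. Lower in SS than in control were 8 of 13 adaptors (4 with the length offset) and 7 of 9 PI3K-AKT genes (3 with the offset), against 21.4% of all genes, and the ERK-induced list holds 5 of the 6 genes called between SS+NAC and control.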

How the data were processed

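RNA of KHM-5M cells was sequenced in 6 libraries, grouped by their labels into control, SS and SS+NAC. The deposited table holds 95 columns for 17687 genes. The authors filtered reads with SOAPnuke, and the submitters' processing notes name HISAT2 2.0.4, Bowtie2 2.2.5 and RSEM 1.2.12, with the annotation version not given in the sources used here. The authors deposited expected counts from RSEM, which were not scaled (44.8% of values were not whole within a tolerance of 0.005, and all were rounded to whole counts for the tests). The TPM values were deposited by the authors, scaled by effective length and to the same total in every library. The FPKM values deposited by the authors are scaled by length and by counted reads. The deposited table also holds 9 columns of group means and 9 columns of the authors' comparisons (log2 fold changes, p-values and q-values), and none of these was used.

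Counts were tested in R 4.3.3 with edgeR 4.0.16 (TMM, filterByExpr, 1 quasi-likelihood model over the 6 libraries, Benjamini-Hochberg, called at an adjusted p of at most 0.05), which kept 14005 genes. Depth was 17645545 to 23810056 expected counts per library, and the biological coefficient of variation was 6.74%. CPM is a count divided by TMM-scaled library size. Effective length was derived from the deposited values, and the length offset was a lowess curve (span 0.3) of each library's log2 CPM deviation on log length. Scripts were tested on simulated data. Alternatives were RLE factors, DESeq2 1.42.0, limma 3.58.1 on log2(TPM + 1), no count filter, at least 10 counts in every library, only the compared libraries, the replicate number as a block and the length offset, and each library was also left out in turn. Figures and tables were made with Python 3.11.15, pandas 2.3.3, numpy 2.4.6 and matplotlib 3.10.9.

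Gene positions came from GENCODE release 29 on GRCh38 and promoters from RefSeq on GRCh38.p14, where 7 of the 8 genes were matched by name, all but ERBB3. The 8 genes were named in every comparison. From each other list, up to 4 genes called between SS and control that averaged 1 CPM or more in any group, with the largest absolute log2 fold change were named, lists of 8 or fewer genes were named in full, and the 2 nearest genes in pattern were named for each ligand and ERRFI1. Some genes that this rule would name are not reported here. The members and lists were chosen with earlier results of these data known.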

Additional observations from a re-analysis of the deposited data

How the results depend on the processing

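Of 336 alternative values for the 8 genes, 295 kept their direction and side of the threshold, 11 reversed, 11 were newly called and 19 lost their call. EGFR in both comparisons of SS, and EREG in both comparisons of SS+NAC, were called in all 14 alternatives. Reversed values between SS and control were ERBB2 with the length offset (0.0195), EREG (-0.16) and HBEGF (-0.061) on the log2(TPM + 1) scale (where the median of all genes was -0.20, below both), and EREG without control replicate 2 (-0.01) or SS replicate 1 (-0.13). Between SS+NAC and control they were ERBB3 on the log2(TPM + 1) scale (0.14) and without SS+NAC replicate 1 (0.20), and TGFA without SS+NAC replicate 2 (-0.0822). Between SS and SS+NAC they were ERBB2 with the length offset (0.14) and without SS+NAC replicate 1 (0.00118), and ERBB3 without SS+NAC replicate 2 (0.16). The length offset left 1292 genes and 1 member called between SS and control and 2019 genes between SS and SS+NAC, and the log2(TPM + 1) scale gave 140 genes and 2 members (AREG and EREG) between SS+NAC and control. Leaving out single libraries gave 3118 to 6579 genes and 1 to 4 members (SS against control), 98 to 1086 genes and 1 to 2 members (SS+NAC against control), and 3250 to 6339 genes and 3 to 5 members (SS against SS+NAC). The log2 fold change over left-out libraries ran, for results that reversed, from -0.13 to 0.20 for EREG (SS against control), from -0.0822 to 0.85 for TGFA and from -0.31 to 0.20 for ERBB3 (SS+NAC against control), and from -0.21 to 0.00118 for ERBB2 and from -0.35 to 0.16 for ERBB3 (SS against SS+NAC). In those fits a lone library is assumed to vary like the other groups. With FPKM in place of TPM, the ratio of SS to control was 0.792 in place of 0.699 for ERBB2 and 0.763 in place of 0.674 for ERRFI1, and that of HBEGF turned from 0.961 in TPM to 1.09 in FPKM. This scaling moves the ratio of every gene alike, by about 1.13. The cause of the other differences was not tested. Replicate numbers were not stated to pair the libraries. Differences between replicates correlated little between groups (0.113 for control and SS, -0.105 for control and SS+NAC, -0.175 for SS and SS+NAC). With 1 such difference per group, these values cannot show whether libraries were paired. The replicate block gave 4857, 211 and 5136 genes and 2, 1 and 4 members called. With the block, ERBB2 was not called between SS and control (-0.24, adjusted p = 0.0875, edgeR's quasi-likelihood test), and no other member call was altered. With 2 libraries per group, 24 to 80 counts for AREG and TGFA limit what can be detected. DESeq2 gave no adjusted p for AREG and TGFA between SS and control.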
